A study of Mus musculus with 6 samples.

Results

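The C-type lectin receptors with a Clec symbol were examined in mouse haematopoietic stem cells sorted by the chemokine receptor CCR2. Members were all genes whose symbol in the platform's probe annotation is Clec followed by a number and a letter, counting probe sets that list 1 gene. The rule found 31 genes among 22180 genes tested, each with 1 probe set. Clec9a, the receptor of conventional dendritic cells for dead cells, shares its probe set with Clec1b in the annotation and was not counted. The series holds 6 whole-transcript arrays, each with 1 pool of sorted cells from the marrow of 20 C57BL/6J mice. The pools are 3 of CCR2- HSC and 3 of CCR2+ HSC, called CCR2-negative and CCR2-positive below, and the design calls them biological replicates. No allele or treatment is named for either group, and the sources used here do not give the ages of the mice or the remaining surface markers of the sort. From each pool 5 ng of total RNA was amplified, so each value is an average over a pool of mice and over whatever cells the gate held.

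C-type lectin receptors are proteins with a carbohydrate recognition fold, many of which bind sugars, lipids or proteins on microbes, dying cells or neighbouring cells. Many Clec receptors sit in the plasma membrane of monocytes, macrophages, dendritic cells, neutrophils or platelets. Several of these receptors signal through the kinase Syk, in some cases with the adaptor Card9, or through inhibitory motifs that recruit phosphatases such as Ptpn6. In the marrow they are best known on maturing myeloid cells, and Clec7a is also a receptor through which fungal beta-glucan can reach haematopoietic progenitors. A few members are different in kind, being secreted, endothelial or, in the case of Clec16a, an intracellular protein of endosomes and mitophagy.

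Among the Clec genes, Clec7a had the smallest p and the largest positive difference between the groups, and no member passed the threshold over all genes. Values are deposited log2 values from RMA, and a difference is the CCR2-positive mean minus the CCR2-negative mean with its standard error from limma. Clec7a was 1.48-fold higher in the CCR2-positive pools (0.57 ± 0.10), while Clec2d, a ligand of inhibitory NK cell receptors, was 1.43-fold lower (-0.51 ± 0.22). At an adjusted p under 0.05 limma called 0 of 31 members and 0.00% of all genes. At an unadjusted p under 0.05 it gave 3 members with a positive difference, against 5.63% of all genes, and 1 with a negative difference, against 6.61%. The 3 were Clec7a, Clec2l and Clec2m and the 1 was Clec2d. These counts were 1 and 1 with median centring, 2 and 0 with a second quantile normalization, and 1 and 0 with cyclic loess. In the same 3 genes every CCR2-positive pool lay above every CCR2-negative pool, as it did for 10.8% of all genes, and no member had its groups apart in the other direction, against 7.88% of all genes.

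As a check of the sort, Ccr2 had log2 values of 5.64, 6.26 and 5.83 in the CCR2-negative pools and 6.81, 7.10 and 6.18 in the CCR2-positive pools (limma, Benjamini-Hochberg adjusted p = 0.274). CCR2-positive replicate 3 thus lay below CCR2-negative replicate 2. Arrays correlated at r = 0.975 to 0.983 within the CCR2-negative group, 0.966 to 0.974 within the CCR2-positive group and 0.960 to 0.977 between groups, across probe sets. Of 11 measured stem cell markers, all 11 had lower means in the CCR2-positive pools (median -0.49), with list means of 7.11 to 7.51 against 7.79 to 8.06. Of 9 monocyte and macrophage markers 7 had higher means (median 0.30), with list means of 6.63 to 6.94 against 6.40 to 6.63. All 8 neutrophil markers had higher means (median 0.42), with list means of 5.24 to 6.15 against 4.86 to 5.54. This became 7 of 8 with median centring, a second quantile normalization or cyclic loess. Of the 8, 5 had means under the median of all gene means, where 68.1% of all genes were higher. All 4 measured erythroid markers had higher means (median 0.82), with list means of 8.32 to 8.94 against 7.25 to 8.07. Each had its groups apart, as did 7.30% of all genes at or above the median level in that direction. Groups were also apart for 8 stem cell markers, all lower, and for 3 monocyte and macrophage and 2 neutrophil markers, all higher. Over all genes 7.88% were apart and lower and 10.8% apart and higher. Of 5 basophil and mast cell markers 4 had higher means, 3 with a second quantile normalization or cyclic loess. Mcpt8, a basophil protease with the largest difference of the 5, had 5.96, 8.76 and 9.09 in the CCR2-positive pools and 5.89 to 6.41 in the CCR2-negative pools. Prss34 differed by 0.50 ± 0.36, Fcer1a by 0.27 ± 0.31, Ms4a2 by 0.03 ± 0.15 and Cpa3 by -0.34 ± 0.24. Lists of other cell types also had higher means for most markers. These were 4 of 4 for B cells (median 0.17), 4 of 5 for T cells (0.11) and 4 of 5 for stroma (0.18). For dendritic cells they were 5 of 8 (0.06), for megakaryocytes and platelets 3 of 5 (0.32) and for endothelium only 2 of 6 (-0.08). Over all genes 56.0% had higher means. Without detection calls no marker could be called absent. The part of these markers in the results on Clec genes was not tested.

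**Figure D1:**
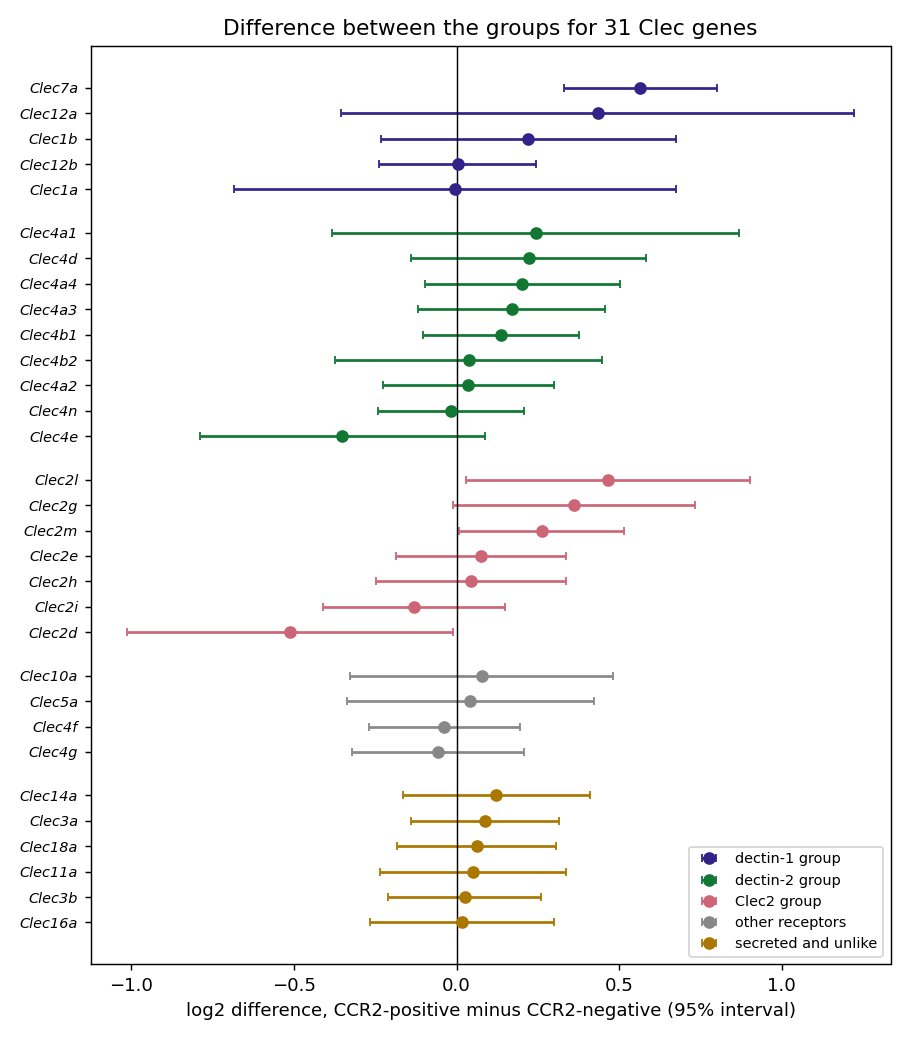
Difference between the groups for 31 Clec genes. Points give the log2 difference (CCR2-positive minus CCR2-negative, 3 pools each) on the horizontal axis, bars the 95% interval from limma, and colours the 5 subgroups; the intervals of Clec7a, Clec2l, Clec2m and Clec2d leave out 0 and the other 27 hold it.

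The precision of the 31 differences was enough to bound most of them as array values. Of the members 13 had means under the 25th percentile of all gene means, and signal over background is unknown. A narrow interval there does not bound the difference in transcript. The 95% interval held 0 for 27 members. For 29 members the interval lay inside -1 to 1 on the log2 scale, so a 2-fold difference in either direction was outside it, and the exceptions were Clec12a (-0.35 to 1.22) and Clec2d (-1.01 to -0.01). For 19 members it lay inside -0.5 to 0.5, which corresponds to 1.41-fold. The difference itself was smaller than 0.1 in either direction for 16 members. The plot of differences by subgroup shows the widest intervals for Clec12a, Clec1a and Clec4a1.

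The signs of the differences leaned to one side. Of the 31 members 24 had higher means in the CCR2-positive pools, which became 22 with median centring and 19 with cyclic loess, and the median difference was 0.06. Over all genes 56.0% had higher means and the median difference was 0.03. Of the Clec genes 23 had a mean below the median of all gene means, and among all genes below that median 68.1% had higher means in the CCR2-positive pools, with a median difference of 0.07. Among the 23 members below the median 19 had higher means, and their median difference was 0.08. The median of the 8 members above it was 0.02, with 5 higher, where 43.9% of all such genes were higher and their median was -0.03. Leaving out CCR2-positive replicate 3 brought the number of members with higher means to 18. The counts at an unadjusted p under 0.05 were also set against genes of a like level. Clec7a and Clec2l were the 2 of 23 members below the median level with a positive difference, where 6.68% of such genes had one, and 0 of 23 had a negative difference, against 1.92%. Both had their groups apart, as 14.2% of such genes had, and 0 of 23 lay apart in the other direction, against 3.38%. Among the 8 members above the median, Clec2m was the 1 with a positive difference, against 4.58%, and with groups apart, against 7.30%, and Clec2d the 1 with a negative difference, against 11.3%.

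**Figure D2:**
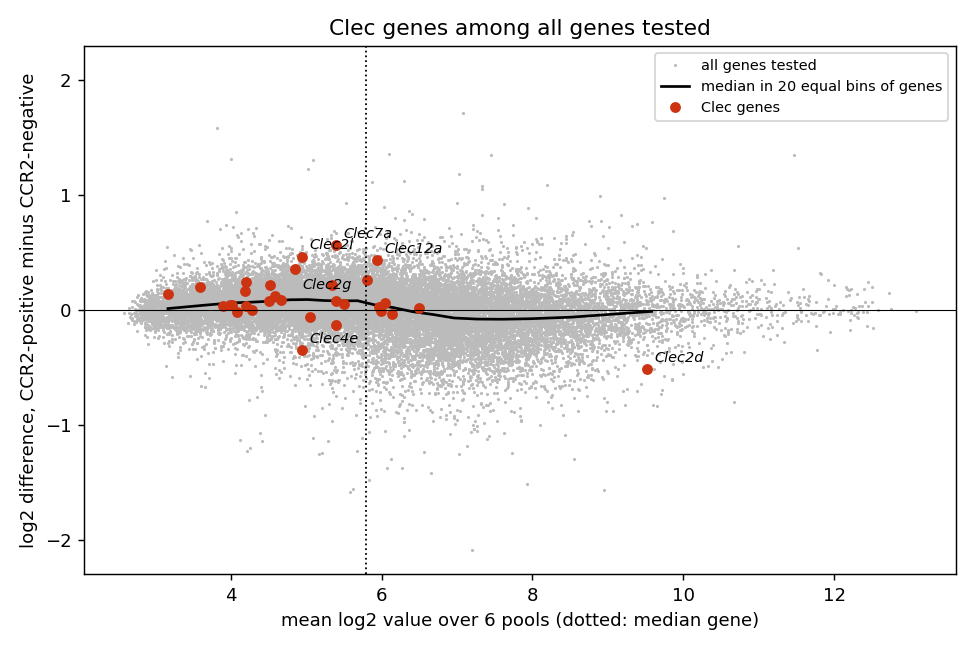
Clec genes among all genes tested. The horizontal axis is the mean log2 value over 6 pools, the vertical axis the log2 difference (CCR2-positive minus CCR2-negative), grey points are all genes, red points the 31 Clec genes and the black line the median of all genes in 20 equal bins; most Clec genes lie left of the dotted median gene, where the black line is above 0.

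The dectin-1 group of receptors lies together on chromosome 6 and was measured through Clec1a, Clec1b, Clec7a, Clec12a and Clec12b. Clec7a (Entrez gene 56644), which encodes dectin-1, the beta-glucan receptor that signals through Syk, had log2 values of 5.21, 5.01 and 5.13 in the CCR2-negative pools and 5.62, 5.70 and 5.72 in the CCR2-positive pools. The groups were 5.68 ± 0.05 (SD, n = 3) and 5.12 ± 0.10 (SD, n = 3), with CCR2-positive first. All CCR2-positive pools, replicate 3 included, lay above all CCR2-negative pools, and the SD was below the median SD over all genes in both groups (0.150 and 0.129). The limma interval was 0.33 to 0.80, with an unadjusted p of 4.63e-04 and a Benjamini-Hochberg adjusted p of 0.177. The difference was 0.50 to 0.57 under the other settings and 0.51 to 0.61 as each pool was left out, with adjusted p-values of 0.104 to 0.474 over all of them. In these bulk pools, more cells with the transcript and more transcript per cell cannot be told apart. Its promoter, 250 bases before to 50 bases after the start, is shown because this gene had the smallest p of the family. The sequence is from RefSeq on GRCm38.p6, chr6:129472730-129473029 on the minus strand, and capitals mark the letters GAGGAA, the core bound by ETS factors of the PU.1 type. A second RefSeq start of the gene gives a window shifted by a few bases that holds the same match.
Clec7a: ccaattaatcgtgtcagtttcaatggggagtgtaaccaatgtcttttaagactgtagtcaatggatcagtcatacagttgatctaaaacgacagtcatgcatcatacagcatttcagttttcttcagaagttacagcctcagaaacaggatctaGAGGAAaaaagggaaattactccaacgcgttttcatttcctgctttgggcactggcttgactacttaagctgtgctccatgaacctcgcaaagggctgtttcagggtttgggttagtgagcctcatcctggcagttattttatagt

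Clec12a, an inhibitory receptor of myeloid cells that recognises uric acid crystals, had values of 5.21, 6.36 and 5.60 in the CCR2-negative pools and 5.50, 6.69 and 6.29 in the CCR2-positive pools. Its groups overlapped widely, since replicate 2 was the high pool on both sides, and the difference was 0.43 ± 0.35 (adjusted p = 0.645, limma). Its range over the pools, 1.48, was the widest of the 31 members. Clec1b, the podoplanin receptor CLEC-2 of platelets and megakaryocytes, differed by 0.22 ± 0.20. Its CCR2-positive replicate 3 had 5.10 and every other pool 4.24 to 4.55, and without that pool the difference was -0.013. Clec1a, a receptor for fungal melanin on endothelial and myeloid cells, had 6.74 in the same CCR2-positive replicate 3 and 5.55 to 6.34 in the other pools. Its difference was -0.004 ± 0.298, and its interval of -0.68 to 0.68 left the sign and differences up to that size undecided. Clec12b, another inhibitory receptor, differed by 0.003 ± 0.105, a sign that turned under all 3 alternative scalings. The median of the 5 was 0.22, and -0.003 without CCR2-positive replicate 3. The probe set that lists Clec9a and Clec1b together lay between 5.25 and 5.38 in all pools and differed by -0.06 ± 0.09.

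**Figure D3:**
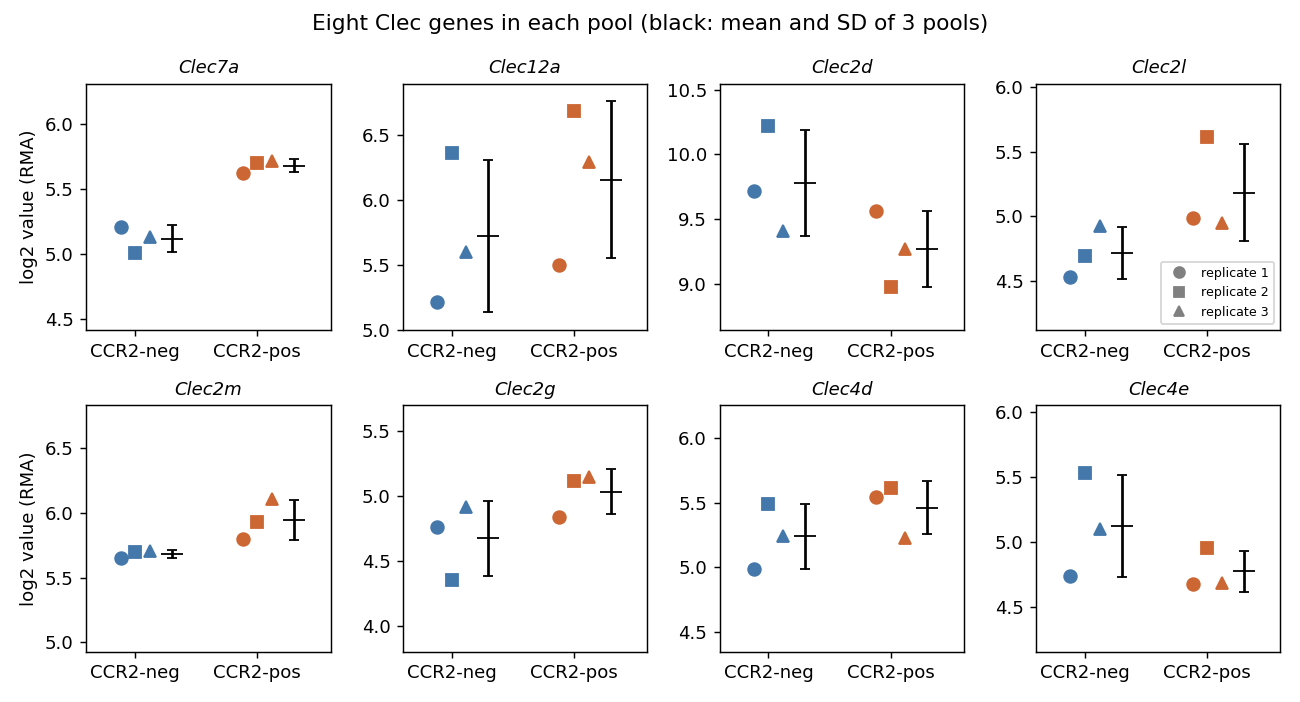
8 Clec genes in each pool. The vertical axes give the deposited log2 value, each panel spanning the same height, with blue for CCR2-negative and orange for CCR2-positive pools, symbols for the replicate number, and black for the mean and SD of 3 pools; in Clec7a, Clec2l and Clec2m the colours do not overlap, while in Clec12a both squares, replicate 2, are high.

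The dectin-2 group holds 9 members, which follow one another among the protein-coding genes of chromosome 6 with no other such gene between them. Several pair with the Fc receptor gamma chain Fcer1g, and Clec4a2 is inhibitory. In chromosome order the differences were 0.24 for Clec4a1, 0.17 for Clec4a3, 0.20 for Clec4a4, 0.14 for Clec4b1, 0.04 for Clec4a2, 0.04 for Clec4b2, -0.02 for Clec4n, 0.22 for Clec4d and -0.35 for Clec4e. None had an unadjusted p under 0.05, and the smallest adjusted p of the 9 was 0.497, that of Clec4e. With the replicate number as a block the unadjusted p of Clec4e was 0.0351 and its adjusted p 0.345 (limma), and without CCR2-negative replicate 1 its difference was -0.54, with an unadjusted p of 0.0134. The median was 0.14, with 7 of 9 higher, which became 5 of 9 with cyclic loess, where Clec4a2 and Clec4b2 changed sign. All 9 had means under the median of all gene means and 7 of them under the 25th percentile, Clec4n among them, which encodes dectin-2 itself and stayed between 4.01 and 4.18 in the 6 pools. Clec4a1 had its high pools in replicate 2 of both groups, 4.56 and 4.90, against 3.83 to 4.04 in the other 4 pools. The same 2 pools had the highest Clec12a values.

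Clec4d and Clec4e, which encode MCL and Mincle, are neighbours whose products form a complex that senses mycobacterial glycolipid, and their differences had opposite signs. Clec4d had 4.99, 5.49 and 5.24 in the CCR2-negative pools and 5.54, 5.61 and 5.23 in the CCR2-positive pools, a difference of 0.22 ± 0.16. Clec4e had 4.74, 5.53 and 5.10 against 4.68, 4.96 and 4.68, a difference of -0.35 ± 0.19. For each gene the groups overlapped, and the adjusted p-values were 0.603 and 0.497 (limma). Their promoters are shown because these were the most unlike differences among adjacent members of the group. Both sequences are from RefSeq on GRCm38.p6, for Clec4d chr6:123261857-123262156 on the plus strand and for Clec4e chr6:123289822-123290121 on the minus strand. Capitals mark GAGGAA on either strand, and in Clec4e also TGTGGT, the core bound by RUNX factors.
Clec4d: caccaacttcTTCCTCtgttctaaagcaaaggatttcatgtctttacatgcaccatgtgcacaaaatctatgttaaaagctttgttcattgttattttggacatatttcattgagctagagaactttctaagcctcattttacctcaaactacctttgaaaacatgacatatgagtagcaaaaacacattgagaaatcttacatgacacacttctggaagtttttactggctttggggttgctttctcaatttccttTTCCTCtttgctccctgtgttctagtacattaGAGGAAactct
Clec4e: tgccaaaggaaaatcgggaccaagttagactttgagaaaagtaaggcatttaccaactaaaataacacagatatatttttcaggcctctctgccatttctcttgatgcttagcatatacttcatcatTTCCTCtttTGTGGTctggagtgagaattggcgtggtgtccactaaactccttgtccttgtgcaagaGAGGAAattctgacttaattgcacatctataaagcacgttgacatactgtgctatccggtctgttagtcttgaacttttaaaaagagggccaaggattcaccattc

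The Clec2 group encodes ligands of the NKR-P1 receptors of NK cells and kin of these ligands, and it held members at both ends of the family. Clec2d, whose product Clr-b is carried by most blood cells and restrains NK cells, had log2 values of 9.72, 10.22 and 9.41 in the CCR2-negative pools and 9.56, 8.98 and 9.27 in the CCR2-positive pools. CCR2-negative replicate 3 lay below CCR2-positive replicate 1, so the groups overlapped. The limma interval was -1.01 to -0.01, with an unadjusted p of 0.0460 and an adjusted p of 0.397, and the difference was -0.70 to -0.29 as each pool was left out. Its promoter, shown as that of the member with the largest negative difference, holds none of the 3 cores searched here. It lies at chr6:129180365-129180664 on the plus strand of GRCm38.p6, from RefSeq, and is printed in lower case throughout.
Clec2d: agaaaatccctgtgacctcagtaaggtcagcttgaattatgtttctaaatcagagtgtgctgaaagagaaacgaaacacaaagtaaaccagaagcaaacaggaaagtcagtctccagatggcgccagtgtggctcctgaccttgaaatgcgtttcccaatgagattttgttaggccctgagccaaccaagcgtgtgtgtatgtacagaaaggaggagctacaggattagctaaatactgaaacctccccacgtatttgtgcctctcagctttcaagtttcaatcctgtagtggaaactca

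Clec2l, a gene first described in brain, had 4.53, 4.69 and 4.93 in the CCR2-negative pools and 4.99, 5.62 and 4.95 in the CCR2-positive pools, a difference of 0.47 ± 0.19 (adjusted p = 0.380, limma). The groups were apart, but by 0.02 at their nearest pools, and CCR2-positive replicate 2 stood above the other two of its group. Clec2m had 5.65, 5.69 and 5.71 against 5.80, 5.93 and 6.11, a difference of 0.26 ± 0.11 (adjusted p = 0.394, limma). Its CCR2-negative pools lay within 0.06 of one another and below all CCR2-positive pools. Clec2g had 4.76, 4.35 and 4.91 against 4.84, 5.12 and 5.15, with overlap and a difference of 0.36 ± 0.16. Clec2e and Clec2h differed by 0.08 and 0.04, and Clec2i by -0.13 ± 0.12. The median of the 7 members was 0.08, with 5 higher, a number that scaling did not move. The measured genes of the NKR-P1 family were Klrb1b (-0.16 ± 0.12), Klrb1c (0.04 ± 0.12) and Klrb1f (0.44 ± 0.20), none with an unadjusted p under 0.05. Of 6 NK cell markers 4 had higher means, with list means of 5.57 to 5.79 in the CCR2-positive and 5.59 to 5.63 in the CCR2-negative pools.

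The remaining receptors and the secreted or unlike members showed small differences. Among the receptors, Clec5a, an activating receptor that pairs with Tyrobp, differed by 0.04 ± 0.17 and Clec10a, a galactose-type lectin of macrophages, by 0.08 ± 0.18. Clec4f, a Kupffer cell lectin, differed by -0.04 ± 0.10 and Clec4g, a lectin of liver sinusoidal endothelium, by -0.06 ± 0.12. In Clec5a the 3 CCR2-negative pools, 3.66 to 4.35, enclosed the 3 CCR2-positive pools, 3.99 to 4.11. Among the secreted or unlike members, Clec11a, a growth factor of marrow stroma known as osteolectin, differed by 0.05 ± 0.13, and its stated receptor subunit Itga11 by 0.14 ± 0.10. Clec14a, an endothelial adhesion protein, differed by 0.12 ± 0.13, Clec3a by 0.09 ± 0.10, Clec18a by 0.06 ± 0.11, Clec3b, the plasminogen-binding tetranectin, by 0.03 ± 0.10 and Clec16a by 0.02 ± 0.12. All 6 were higher by these values, but Clec16a changed sign with median centring and Clec11a and Clec3b with cyclic loess. The smallest adjusted p of these 10 genes was 0.724.

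**Figure D4:**
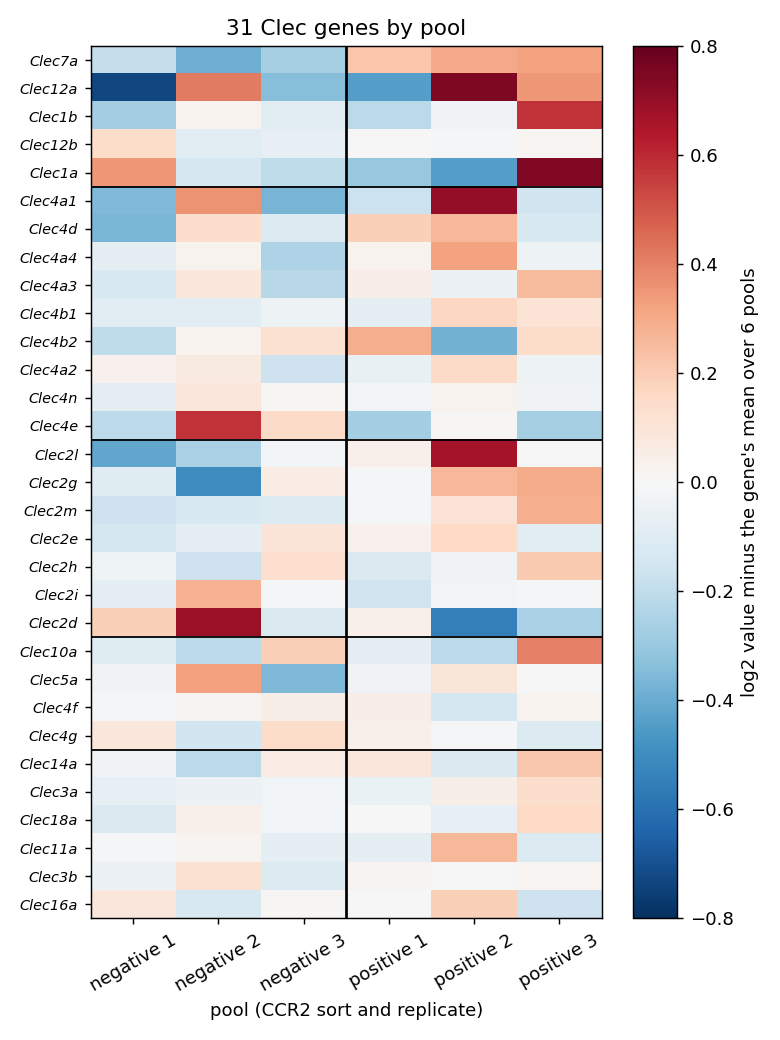
31 Clec genes by pool. Rows are genes ordered by subgroup (black lines) and difference, columns the 6 pools, and colour the log2 value minus the mean of the gene over 6 pools; Clec7a changes colour between the groups, while Clec12a and Clec4a1 are high in replicate 2 of both groups and Clec1a and Clec1b in CCR2-positive replicate 3.

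The members did not share one pattern over the pools. The highest of the 6 pools was CCR2-positive replicate 3 for 11 members, CCR2-positive replicate 2 for 10 and CCR2-positive replicate 1 for 2. It was CCR2-negative replicate 2 for 6 members, and replicates 1 and 3 of that group for 1 each. The range over the pools was above 1 on the log2 scale for 5 members, Clec12a, Clec2d, Clec1a, Clec2l and Clec4a1, and below 0.5 for 17. In Clec12a, Clec2l and Clec4a1 the highest pool was CCR2-positive replicate 2, in Clec2d CCR2-negative replicate 2 and in Clec1a CCR2-positive replicate 3. The median SD of the members was 0.160 within the CCR2-positive and 0.148 within the CCR2-negative group, where all genes had 0.150 and 0.129.

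Promoters of 25 members were matched by gene number in the RefSeq table, giving 28 windows of 300 bases. Clec10a, Clec1a, Clec3a, Clec3b, Clec4a4 and Clec4n were not matched. The letters GAGGAA were present on either strand in 16 of the 28 windows, 57.1%, and in 28.3% of all 32851 windows of the same length. By subgroup they were in the windows of 6 of 7 matched genes of the dectin-2 group, all but Clec4a2, of 2 of 4 in the dectin-1 group (Clec7a and Clec12a) and of 2 of 7 in the Clec2 group (Clec2h and Clec2l). They were also in the windows of all 4 matched secreted or unlike genes, Clec11a, Clec14a, Clec16a and Clec18a, and of 1 of 3 remaining receptors, Clec5a. TGTGGT, the RUNX core, was in 7 of 28 windows, against 16.8% of all windows, and 5 of the 7 were windows of dectin-2 group genes. AGATAA, the GATA core, was in the window of Clec1b alone, 3.57% against 11.2%. These 3 letter strings do not overlap one another in content, windows of one gene can overlap, and a match is a description of letters and not a bound site. Of the 15 genes with the PU.1-type core, Clec4e alone had a negative difference and all others a positive one. Of all 31 members, with or without this core, 24 had a positive difference. A link between the core and the sign was not tested.

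The genes that carry the signal of these receptors leaned the other way, and none passed over all genes. Of 21 measured signalling genes 14 had lower means in the CCR2-positive pools, which became 12 with a second quantile normalization and 13 with cyclic loess, and the median difference was -0.18. An unadjusted p under 0.05 was reached by 5 with a negative and 1 with a positive difference, Tyrobp, and 4 had groups apart with the CCR2-positive pools lower. All but 2 of the 21, Fgr and Blnk, had means at or above the median of all gene means. Among all genes at or above that median 43.9% had higher means, as did 5 of the 19 signalling genes there. Of all such genes 11.3% had a negative difference at an unadjusted p under 0.05 and 12.4% had groups apart in that direction. In the positive direction these shares were 4.58% and 7.30%, and 0 of the signalling genes had groups apart that way. The median difference of all such genes was -0.03. Tyrobp, the adaptor DAP12 that partners Clec5a, had 7.58, 8.17 and 7.62 in the CCR2-negative pools and 8.52, 8.48 and 7.88 in the CCR2-positive pools, a difference of 0.51 ± 0.21 (adjusted p = 0.387, limma). CCR2-positive replicate 3 lay below CCR2-negative replicate 2. Fcer1g, the Fc receptor gamma chain, differed by 0.32 ± 0.28, and Hcst, the adaptor DAP10, by -0.40 ± 0.25.

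Below the receptors, Syk, the kinase that Clec7a recruits, differed by -0.33 ± 0.19 and Card9, the adaptor after it, by 0.26 ± 0.16. Both overlapped between groups, and Syk was 6.34 in CCR2-positive replicate 3 against 6.80 to 7.18 in the other 5 pools. Ptpn6, the phosphatase SHP-1 that inhibitory members recruit, had 8.59, 8.88 and 8.59 in the CCR2-negative pools and 8.24, 8.27 and 8.24 in the CCR2-positive pools, a difference of -0.44 ± 0.11 (adjusted p = 0.222, limma). Its groups were apart and its CCR2-positive pools lay close together. Plcg2, a phospholipase downstream of Syk, differed by -0.43 ± 0.13, Vav3, an exchange factor, by -0.35 ± 0.12, and Malt1, which joins Card9 and Bcl10 in 1 complex, by -0.27 ± 0.10. These 3 also had their groups apart. Bcl10 itself differed by -0.40 ± 0.17 with overlapping pools.

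C-type lectins that carry no Clec symbol were set beside the members. Of 35 measured genes 24 had higher means in the CCR2-positive pools, which became 19 with cyclic loess, with a median of 0.09. An unadjusted p under 0.05 was reached by 6 with a positive and 3 with a negative difference, and 0 passed over all genes. Of the 35, 27 had means under the median of all gene means, where 68.1% of genes were higher and 6.68% and 1.92% reached that p with a positive and a negative difference. The median of the 8 at or above that level was -0.22. The relatives of Clec14a in lectin group XIV differed in opposite directions. Cd93, carried by early progenitors and endothelium, had 8.11, 7.84 and 8.06 in the CCR2-negative pools and 7.29, 7.20 and 7.49 in the CCR2-positive pools, a difference of -0.68 ± 0.12. Thbd, thrombomodulin, differed by -0.44 ± 0.24 with overlap, while Cd248, endosialin, had 6.24, 6.13 and 6.37 against 6.79, 6.88 and 6.97, a difference of 0.63 ± 0.11. Both Cd93 and Cd248 had groups apart and an adjusted p of 0.177 (limma), the value of Clec7a. With Clec14a at 0.12 ± 0.13, the 4 relatives spanned both signs. Ly75, an uptake receptor of dendritic cells, and Layn, a hyaluronan receptor, differed by -0.38 ± 0.12 and -0.45 ± 0.17. Pla2r1, a phospholipase receptor, differed by 0.46 ± 0.14, Cd209b by 0.32 ± 0.10 and Mrc2, a collagen uptake receptor, by 0.32 ± 0.10.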

How the data were processed

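The authors deposited 1 table of log2 values for 41345 probe sets on 6 arrays, made with RMA per the submitters' processing notes; the sources used here do not give its settings and version. RMA equalises array distributions, so differences are relative to the other genes of an array. No detection calls or raw intensities were used, signal over background is unknown, and the number of arrays limits the precision. Probe sets listing 1 gene (23521) gave 22180 genes, the brightest probe set standing for a gene with several. CCR2-positive and CCR2-negative pools were compared with limma 3.58.1 in R 4.3.3 (lmFit, eBayes, no covariate), with Benjamini-Hochberg adjustment over all genes and a threshold of 0.05. The fit was tested on simulated data. Subgroups, signalling, partner, lectin and marker lists were set by symbol. All Clec, signalling and partner genes could be named, and up to 4 other lectins per direction by smallest p. The members and lists were chosen with earlier results of these data known. Symbols of 31 members matched RefSeq of GRCm38.p6 by gene number. Whether same-numbered pools came from the same mice is not given in the sources used here. Correlations of same-numbered deviations were 0.03 to 0.09 and those of other numbers -0.10 to 0.07, so pairing was left undecided. Alternatives were level filters, scalings, a replicate block, other variance models, array weights, probe set means, leaving out each pool and looser thresholds.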

Additional observations from a re-analysis of the deposited data

How the results depend on the processing

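No Clec, signalling or other lectin gene passed an adjusted p of 0.05 under any setting run. At an adjusted p under 0.2 limma called 318 of the 22180 genes tested. These included 1 Clec gene, Clec7a, 0 signalling genes and 2 other lectins. Without genes under the median level 8 Clec genes remained in the fit, with a median difference of 0.021, and the other lectin median was -0.22. At an unadjusted p under 0.05, 0 of the 8 had a positive difference, against 3.62% of all genes in that fit. The 1 with a negative difference was Clec2d, against 10.1%, and 1 had groups apart and higher, against 7.3%. The number of Clec genes at an unadjusted p under 0.05 with a positive difference was 1 with median centring, cyclic loess or array weights. The number with a negative difference was 0 with a second quantile normalization, cyclic loess or array weights. In those settings the shares of all genes were 4.63% to 7.02% with a positive and 5.53% to 7.51% with a negative difference. The Clec median was 0.012 with cyclic loess. As each pool was left out, the Clec median ran from 0.046 to 0.11. The number at an unadjusted p under 0.05 ran from 1 to 5 with a positive difference, against 3.78% to 6.57% of all genes. With a negative difference it ran from 0 to 1, against 4.79% to 7.11%. The number with groups apart ran from 4 to 8 higher, against 15.3% to 19% of all genes, and from 1 to 2 lower, against 11.4% to 13.7%. Fewer pools make such separation easier. With the replicate number as a block the medians were 0.06, -0.18 and 0.09 for the Clec, signalling and other lectin genes and no adjusted call was made, but the genes at an unadjusted p under 0.05 changed. Clec7a and Clec2l were joined by Clec12a with a positive and Clec4e with a negative difference, and Clec2m and Clec2d no longer reached it. The counts with a positive and a negative difference were 2 and 6 for signalling genes and 5 and 4 for other lectins. With this block 5.86% of all genes reached it with a positive and 7.38% with a negative difference.

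Of the 31 differences 15 kept their sign under every setting run. Signs turned for Clec12b with a second quantile normalization (-0.020), median centring (-0.020), cyclic loess (-0.052) and array weights (-0.0019), and for Clec1a with a second quantile normalization (0.027). They turned for Clec16a with median centring (-0.0063), and with cyclic loess for Clec11a (-0.0096), Clec3b (-0.0031), Clec4a2 (-5.7e-04) and Clec4b2 (-0.014). They turned for Clec10a (-0.030) and Clec2h (-0.051) with array weights. As each pool was left out, the ranges that crossed 0 were -0.10 to 0.20 for Clec10a, -0.071 to 0.12 for Clec11a, -0.039 to 0.078 for Clec12b, -0.073 to 0.11 for Clec16a, -0.00095 to 0.11 for Clec18a, -0.38 to 0.22 for Clec1a, -0.013 to 0.38 for Clec1b and -0.050 to 0.12 for Clec2h. They were -0.023 to 0.091 for Clec3b, -0.046 to 0.48 for Clec4a1, -0.038 to 0.082 for Clec4a2, -0.098 to 0.24 for Clec4b2, -0.074 to 0.023 for Clec4f, -0.15 to 0.0042 for Clec4g, -0.059 to 0.026 for Clec4n and -0.13 to 0.22 for Clec5a. The cause of these changes was not tested.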

Other observations

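Within each array, Clec4d minus Clec4e was 0.25, -0.04 and 0.14 on the log2 scale in the CCR2-negative pools and 0.86, 0.66 and 0.54 in the CCR2-positive pools. The means were 0.69 ± 0.16 (SD, n = 3) and 0.12 ± 0.15 (SD, n = 3), with CCR2-positive first, and the groups did not overlap. The pair was picked after its values had been seen, so the separation is a description of these pools and was not tested.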
